A study of Mus musculus with 6 samples.

Results

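The 29 genes described here make or run the peroxisome: 12 encode peroxins, the proteins that build the organelle and import its enzymes, and 17 encode enzymes and transporters of its lipid oxidation, ether lipid synthesis and peroxide removal. They were chosen by name, from the gene names of the authors' deposited results table, with no measured value in the rule, and all 29 of them were found among the 51888 rows of the count tables. All 29 passed the filter on low counts, as did 14302 genes in all. RNA sequencing was done on total hearts of 3 knockout mice (L/L, cre, labelled Elac2 -/-) and 3 control mice (L/L, labelled Elac2 +/+). All were on a C57BL/6 background. Each mouse had 1 column of counts, called a library here. In the knockouts a loxP-flanked exon of Elac2 was removed by cre expressed from the muscle creatine kinase promoter; the controls were not labelled with cre, so an effect of cre itself cannot be told apart from the loss of Elac2. This promoter is active in muscle cells, while RNA was taken from the whole heart, so cells without cre contributed reads. The labels used here give no age or sex.

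Peroxisomes are small single-membrane organelles that shorten fatty acids too long or too branched for direct use in mitochondria, and they begin the synthesis of ether lipids (plasmalogens), which heart membranes hold in abundance. Their matrix enzymes are made in the cytosol and carried in by the receptors Pex5 and Pex7, which dock on Pex14 and Pex13 and are then pulled back out by a ubiquitin ligase that includes Pex2 and Pex10 and a motor that includes Pex6 and is anchored by Pex26. In rodent liver many of these genes respond to the lipid-activated nuclear receptor PPARα, from whose agonists the name peroxisome proliferator derives.

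Counts were scaled by TMM, a factor per library that sets the bulk of genes equal, and are given as CPM (reads of the gene scaled to the size of its library). A gene was called when its Benjamini-Hochberg adjusted p in edgeR's quasi-likelihood test, adjusted over all 14302 tested genes, was under 0.05, and fold changes are log2 of knockout over control. Knockout libraries held 9850100 to 14461110 counts and control libraries 12057962 to 14276410. Elac2 itself was at 5.36, 5.63 and 6.52 CPM in the knockouts, against 15.0, 14.002 and 13.01 CPM in the controls (log2 fold change -1.27, SE 0.15, adjusted p = 2.12e-04). Mitochondrial-encoded features took 33.3 to 36.7% of counts in knockouts and 49.3 to 61.1% in controls. With library size in place of TMM the median log2 fold change of all tested genes was 0.68, against -0.01 with TMM, so every change below is relative to the bulk of tested genes. The 10 cardiomyocyte markers were all detected. Their summed level was 20035 to 21240 CPM in knockouts and 38580 to 40495 CPM in controls. Myh6, Actc1 and Ryr2 were called lower (-1.32, -0.70 and -1.61), and the other markers of this list were not called, with values from -0.86 to -0.23. Myh6 alone had a mean of 7712 CPM in knockouts and 19271 CPM in controls. Of the other marker lists, 5 of 10 endothelial genes were lower, 0 of 8 fibroblast and 0 of 8 macrophage genes were called, 2 of 6 smooth muscle and pericyte genes were lower and 1 was higher, and 1 of 5 erythroid genes was higher. Neither the 5 tested adipocyte genes nor the 1 tested hepatocyte gene was called. In whole tissue, fewer cells of a type and less RNA per cell cannot be told apart, and the part of cell makeup in the results below was not tested.

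One library of each group was low for more of these genes than for all tested genes. Knockout replicate 1 held the lowest level of the 3 knockouts for 26 of the 29 genes (89.7%), while over all tested genes it was lowest for 42.7%. Among the controls, replicate 3 was lowest for 17 of the 29 (58.6%), against 36.5% over all tested genes. The 29 genes together reached 785, 1025 and 1013 CPM in knockout replicates 1, 2 and 3, and 1064, 1092 and 1015 CPM in control replicates 1, 2 and 3. Knockout replicate 1 also had the highest summed level of fibroblast markers, 2676 CPM against 1865 and 1569 CPM in the other knockouts and 1145 to 1665 CPM in the controls; the part of this in the results was not tested. For the 29 genes, calls that were gained or lost when knockout replicate 1 was left out are given with and without it.

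The peroxisomal genes were centred where all tested genes were, and single members were called in both directions. Of the 29, 4 were called higher and 7 lower, or 13.8% and 24.1%, where 18.7% of all tested genes were called higher and 17.8% lower, 36.5% in all. Their median log2 fold change was -0.02, beside -0.01 for all tested genes, and the values ran from -1.09 for Ehhadh to 1.35 for Pex14. The 4 genes called higher were Pex14, Pex16, Cat and Agps, and the 7 called lower were Phyh, Pex6, Pex10, Abcd3, Scp2, Amacr and Gnpat. Without knockout replicate 1 the counts were 5 higher and 5 lower: Pex3 was called in addition, and Amacr and Gnpat were not. Without control replicate 1 they were 2 higher and 4 lower, without control replicate 2 they were 4 and 4, and without knockout replicate 2 they were 2 and 5. Fewer genes were called over all tested genes in those fits too: 4257 of 14625, 3756 of 14905 and 3694 of 14540, against 5215 of 14302 with all libraries. With library size alone 16 were called higher and 0 lower, where 56.6% and 3.86% of all genes were, and the fold changes of Pex10, Abcd3, Scp2, Amacr and Gnpat turned positive while staying under the 0.68 of all genes.

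**Figure D1:**
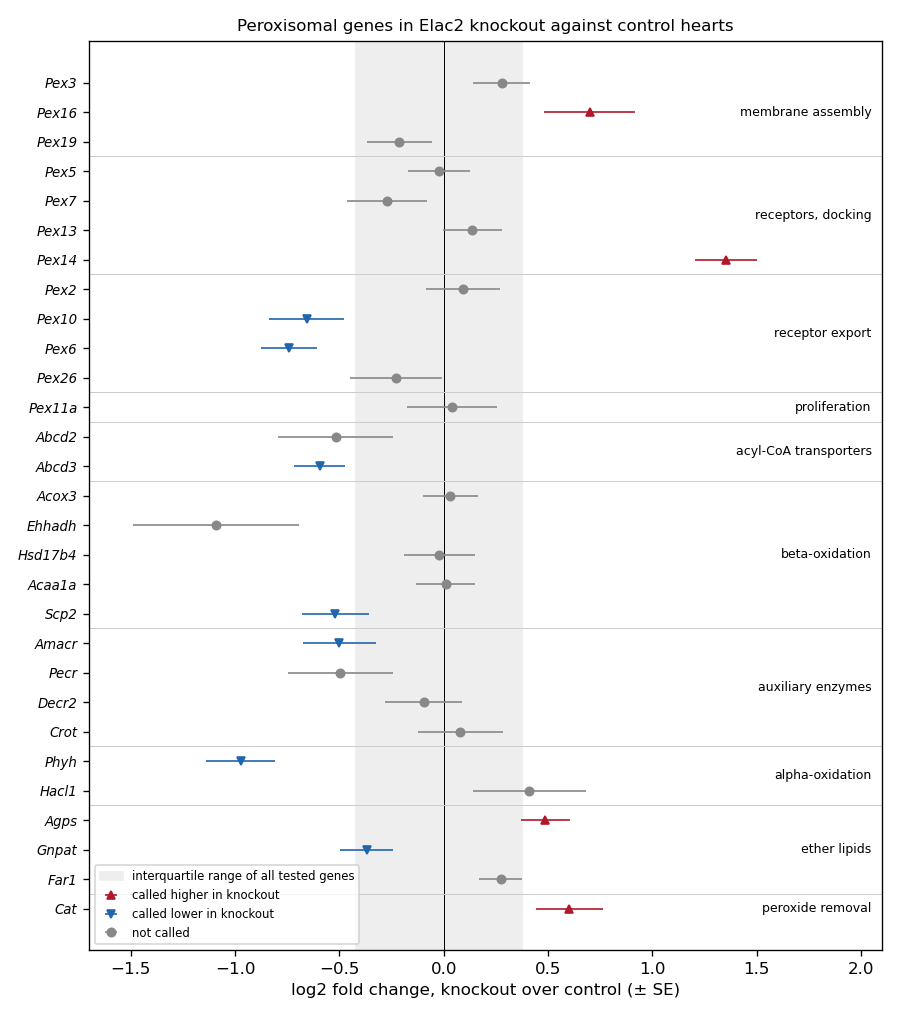
Log2 fold change (knockout over control, x axis) of each of the 29 genes, in rows by role, with bars of 1 SE from 3 libraries a group; triangles mark called genes and the shaded band the interquartile range of all tested genes, -0.42 to 0.37. Pex14 lies farthest right at 1.35, and among called genes Phyh lies farthest left at -0.97.

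For 3 of the members on which the results turn, the RefSeq start region (250 bases before to 50 after the annotated start, GRCm38.p6) is shown: Pex14, the member with the largest rise, Cat, the most abundant member called higher, and Phyh, the most abundant member called lower. Each is written 5′ to 3′ on the strand of its gene, and capitals mark matches, on either strand, to the motifs described next.
Pex14 (chr4:149099794-149100093, minus strand): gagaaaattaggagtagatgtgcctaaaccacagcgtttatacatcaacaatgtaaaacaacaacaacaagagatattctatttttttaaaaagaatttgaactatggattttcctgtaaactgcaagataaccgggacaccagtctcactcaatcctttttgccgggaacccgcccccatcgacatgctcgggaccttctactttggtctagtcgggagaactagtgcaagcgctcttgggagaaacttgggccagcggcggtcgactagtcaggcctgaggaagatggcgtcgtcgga
Cat (chr2:103485104-103485403, minus strand): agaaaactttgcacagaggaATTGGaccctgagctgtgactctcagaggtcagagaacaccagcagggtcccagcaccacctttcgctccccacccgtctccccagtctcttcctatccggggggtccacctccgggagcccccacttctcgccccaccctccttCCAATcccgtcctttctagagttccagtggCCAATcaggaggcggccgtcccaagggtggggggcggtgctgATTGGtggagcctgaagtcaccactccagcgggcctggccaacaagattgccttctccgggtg
Phyh (chr2:4918746-4919045, plus strand): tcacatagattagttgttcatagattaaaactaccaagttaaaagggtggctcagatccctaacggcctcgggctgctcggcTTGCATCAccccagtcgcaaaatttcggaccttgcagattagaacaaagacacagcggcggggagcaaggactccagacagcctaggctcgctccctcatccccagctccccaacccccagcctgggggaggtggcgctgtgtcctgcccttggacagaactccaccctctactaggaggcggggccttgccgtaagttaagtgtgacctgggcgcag

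The motifs were picked after fold changes were known. Start regions were found for 24 of the 29 genes, in 28 windows. Letters were searched on both strands: AGGTCA repeated in 1 direction with 1 base between, read by PPAR with RXR; TCAAGGTCA, read by estrogen-related receptors; TGATGNAA, a composite element of the stress factor ATF4; TGACGTCA, the cyclic AMP element; and CCAAT, the box of NF-Y. The direct repeat matched 0 of the 28 windows and 0.0396% of all 32851 windows of that length, and TCAAGGTCA matched 0 of 28 and 0.423% of all. TGATGNAA was in 1 member, Phyh, on the minus strand, and in 3.97% of all windows. TGACGTCA was in 1, Pex13, and in 1.79% of all windows. CCAAT was in 12 of the 28 windows, those of 11 genes, and in 37.4% of all windows. Of these genes, Cat, Agps and Pex16 were called higher. The others, Acaa1a, Crot, Ehhadh, Far1, Hacl1, Pecr, Pex5 and Pex7, were not called. The Cat window held 4 of these boxes, while the Pex14 window held none of the 5 motifs. The member windows were richer in CpG pairs, with a median of 19 against 7 in all windows. Matching letters describe these windows only and say nothing of binding.

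Pex14 showed the largest rise. It encodes the docking protein on the peroxisomal membrane that receives cargo-loaded Pex5 (chromosome 4, 148960535 to 149099876, minus strand, mm10). Its level was 28.7, 30.8 and 26.8 CPM in the 3 knockouts, against 13.4, 10.4 and 9.64 CPM in the 3 controls. All knockout libraries lay above all control libraries, with means of 28.7 ± 1.98 and 11.2 ± 1.97 CPM (SD, n = 3 each), and the fold change was 1.35 on the log2 scale (SE 0.15, adjusted p = 1.48e-04). The call was made under each of the 15 alternatives, and leaving out 1 library gave 1.26 to 1.52. An antisense gene, Gm17029, shares 1776 of the 6272 exonic bases of Pex14, and Gm17029 was lower (-1.92, adjusted p = 4.84e-04), with 25, 39 and 17 counts in knockouts and 90, 46 and 61 in controls. No source used here states if the strand of a read was counted, so reads in this stretch are of uncertain origin; Pex14 held 333 to 540 counts in knockouts and 83 to 178 in controls.

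The partner of Pex14 and the receptors it serves were not called. Pex13, the other docking protein, was at 20.3, 23.9 and 22.7 CPM in knockouts and 23.6, 18.4 and 18.5 CPM in controls (0.14, SE 0.14, adjusted p = 0.47). Pex5, the receptor for the common C-terminal targeting signal, was at 15.4 to 17.8 CPM in knockouts and 14.2 to 19.6 CPM in controls (-0.02, SE 0.15). Pex7, the receptor for the less common N-terminal signal, was at 10.7 to 16.0 CPM in knockouts and 13.1 to 19.2 CPM in controls (-0.27, SE 0.19). The groups overlapped for each of these. The ratio of Pex14 to Pex13 counts within a library, which needs no scaling, was 1.41, 1.29 and 1.18 in the knockouts and 0.567, 0.566 and 0.522 in the controls. Pex14 thus had more reads than Pex13 in each knockout and fewer in each control (difference of mean log2 ratios 1.23; two-sided exact permutation p = 0.1, the smallest that 3 against 3 allows, or 0.18 adjusted over the 9 pairs compared).

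Of 3 genes for membrane assembly, 1 was called higher. Pex16, which recruits Pex3 to the membrane, was at 9.66, 13.1 and 13.8 CPM in knockouts and 7.30, 9.67 and 5.46 CPM in controls. The lowest knockout and the highest control were nearly equal, so the groups overlapped, although the gene was called (0.70, SE 0.22, adjusted p = 0.0315). That call was lost without knockout replicate 2, knockout replicate 3, control replicate 1 or control replicate 3, with adjusted p from 0.0805 to 0.0987. Pex3, the membrane receptor for newly made membrane proteins, was at 15.7, 19.8 and 19.7 CPM in knockouts and 14.8, 14.9 and 15.8 CPM in controls (0.28, SE 0.14, adjusted p = 0.143), and without knockout replicate 1 it was called (0.38, adjusted p = 0.0272). Pex19, the cytosolic chaperone that delivers those proteins, was the most highly expressed peroxin per length in both groups, at 18.9 CPM per kb in knockouts and 21.9 CPM per kb in controls. Its fold change was -0.21 (SE 0.16, adjusted p = 0.311).

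Of 4 genes for receptor ubiquitination and export, 2 were called lower. Pex6, a subunit of the export motor, was at 9.82, 9.58 and 9.74 CPM in knockouts, against 17.8, 16.4 and 14.4 CPM in controls. The knockouts lay close together (mean 9.71 ± 0.121 CPM, SD, n = 3) and below each control (-0.74, SE 0.14, adjusted p = 2.35e-03), and the call was kept whichever library was left out. Pex10, a subunit of the ubiquitin ligase, was at 4.35, 6.21 and 4.91 CPM in knockouts and 7.97, 7.89 and 8.60 CPM in controls. Its groups did not overlap either (-0.66, SE 0.18, adjusted p = 0.0174), and its call was lost without control replicate 3 (adjusted p = 0.0548) and in the authors' deposited table (-0.63, adjusted p = 0.0509). Pex2, another ligase subunit, was at 16.3 to 22.8 CPM in knockouts and 14.9 to 21.7 CPM in controls, and Pex26, the anchor of the motor, at 4.46 to 6.20 CPM in knockouts and 4.67 to 7.43 CPM in controls. Neither was called, with values of 0.09 and -0.23. Pex11a, which elongates peroxisomes before division and is a known PPARα target in rodents, was at 4.51 to 6.68 CPM in knockouts and 4.36 to 5.92 CPM in controls (0.04, SE 0.22, adjusted p = 0.901).

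**Figure D2:**
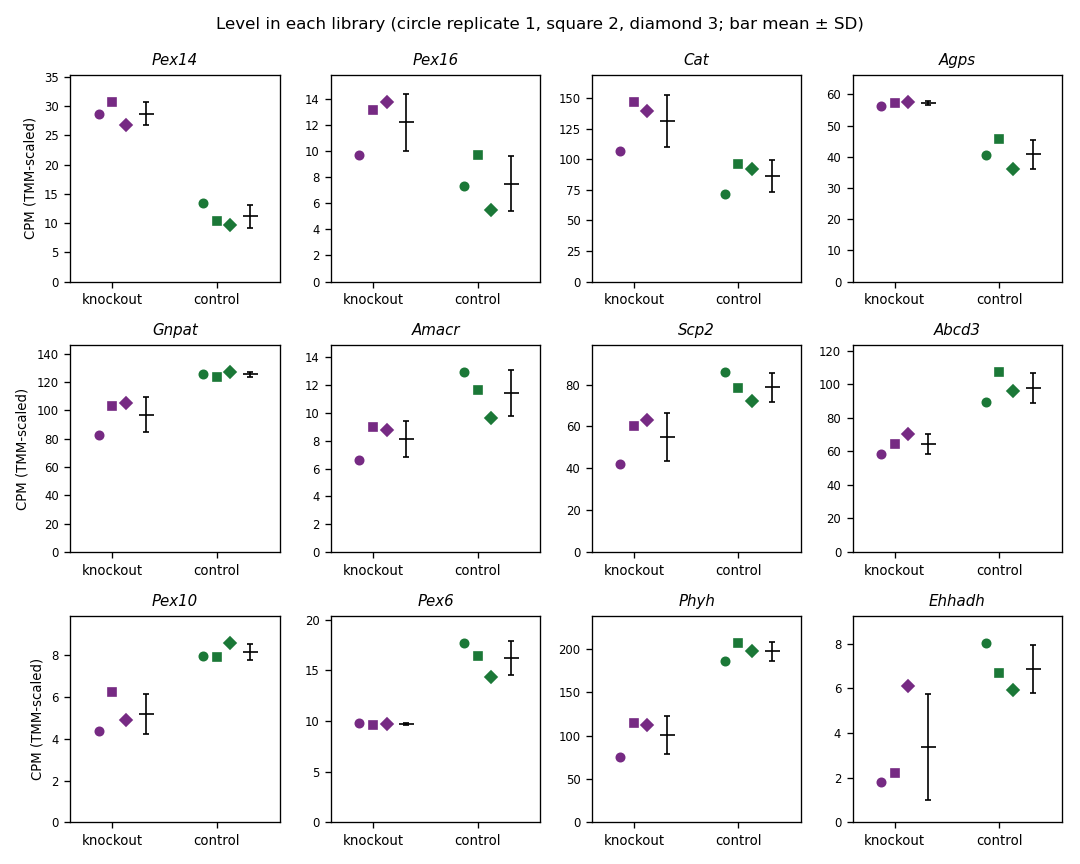
Level in CPM (y axis, from 0) in each knockout and control library for the 11 called genes, from the highest to the lowest fold change, and for Ehhadh; circles, squares and diamonds are replicates 1, 2 and 3, and the bar beside them is the mean ± SD of 3 libraries. Pex6 and Agps are tight in the knockouts, while Ehhadh has knockout replicate 3 at 6.12 CPM and the other knockouts at 1.80 and 2.21 CPM.

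Among the transporters that carry acyl-CoA into the peroxisome, Abcd3 was lower. Abcd3, the carrier for branched and dicarboxylic acyl-CoA, was at 58.6, 64.3 and 70.5 CPM in knockouts, against 89.5, 107 and 95.7 CPM in controls. Each knockout lay below each control (-0.60, SE 0.12, adjusted p = 4.52e-03), and the call was kept whichever library was left out. Abcd2, a carrier for long and polyunsaturated acyl-CoA, had the lowest level per length of the 29 genes in both groups, 0.590 CPM per kb in knockouts and 0.823 in controls. It was at 2.44, 3.02 and 5.07 CPM in knockouts and 5.49, 4.67 and 4.53 CPM in controls (-0.52, SE 0.28, adjusted p = 0.168). Without knockout replicate 3 its fold change was -0.85 (adjusted p = 0.0237).

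The core enzymes of peroxisomal β-oxidation were mostly close to the bulk. Acox3, an oxidase that starts the breakdown of branched chains, was at 17.5 to 21.5 CPM in knockouts and 17.7 to 20.7 CPM in controls (0.03, SE 0.13). Acaa1a, the thiolase of straight chains, was at 24.9 to 31.6 CPM in knockouts and 24.6 to 32.3 CPM in controls (0.01, SE 0.14); it shares 783 bases at 98.7% identity with Acaa1b, which held at most 8 counts in any library. Hsd17b4, the multifunctional enzyme that handles very long and branched chains, was at 43.0, 67.5 and 68.0 CPM in knockouts and 63.5, 58.5 and 59.0 CPM in controls. Its groups overlapped around the same mean, 59.5 ± 14.3 and 60.3 ± 2.77 CPM (SD, n = 3 each), with the wider spread among knockouts.

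Ehhadh and Scp2 had the lowest fold changes of this group, and of the 2 only Scp2 was called. Ehhadh, the other multifunctional enzyme, which serves dicarboxylic acids, was at 1.80, 2.21 and 6.12 CPM in knockouts and 8.05, 6.67 and 5.92 CPM in controls. Knockout replicate 3 lay among the controls, and the gene was not called (-1.09, SE 0.40, adjusted p = 0.0538). It was called lower without that library (-1.78, adjusted p = 6.44e-04), in the authors' deposited table (-1.03, adjusted p = 0.0314) and under 5 further alternatives. Adipocyte markers varied between libraries in a like order, with a summed level of 11.3, 21.1 and 63.5 CPM in knockout replicates 1, 2 and 3 and 61.3, 16.0 and 13.8 CPM in control replicates 1, 2 and 3. Within each group, Ehhadh and Abcd2 were highest in the library with the highest sum of adipocyte markers. So were Pex2, Hsd17b4, Scp2, Decr2 and Hacl1. The share of all tested genes that were highest in the same libraries was not computed, so this order cannot be read as particular to the genes named. The part of adipocyte RNA in the values of these genes was not tested. The liver transcript Alb had 0 counts in each library. Summed hepatocyte markers were at 0.425, 1.28 and 8.94 CPM in knockout replicates 1, 2 and 3. They were at 3.46, 1.67 and 2.56 CPM in control replicates 1, 2 and 3. The hepatocyte list was thus highest in the same library of each group as the adipocyte list, and its part was not tested either. Scp2, whose products are the thiolase of branched chains and a sterol carrier protein, was at 41.8, 60.1 and 63.0 CPM in knockouts and 85.9, 78.1 and 72.0 CPM in controls. All knockouts were below all controls (-0.52, SE 0.16, adjusted p = 0.029), though the call was lost without control replicate 1 (adjusted p = 0.0952) and without control replicate 2 (adjusted p = 0.076). A pseudogene, Scp2-ps2, is 99.6% identical over 1371 bases and was lower as well (-0.65, adjusted p = 0.0147), so the split of reads between the loci is uncertain.

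The auxiliary enzymes held 1 call. Amacr, the racemase that turns methyl-branched acyl-CoA into the form the oxidases accept, was at 6.63, 9.0 and 8.78 CPM in knockouts and 12.9, 11.7 and 9.64 CPM in controls. The groups were separate by a narrow gap, and the call (-0.50, SE 0.18, adjusted p = 0.0496) was lost under 11 of the 15 alternatives, among them all of those that left out a library other than control replicate 3. Without knockout replicate 1 the value was -0.37 (adjusted p = 0.0973). Pecr, a reductase of unsaturated acyl-CoA, did not overlap between groups, at 1.96 to 2.17 CPM in knockouts and 2.22 to 3.72 CPM in controls, and was not called (-0.50, SE 0.25, adjusted p = 0.15). Decr2, which reduces the double bonds of polyunsaturated chains, was at 7.43 to 10.9 CPM in knockouts and 9.52 to 11.7 CPM in controls (-0.10, SE 0.19). Crot, which makes carnitine esters of the shortened chains for export to mitochondria, was at 16.6, 30.7 and 26.0 CPM in knockouts and 25.3, 23.0 and 20.8 CPM in controls (0.08, SE 0.20). Over all 29 genes, 4 had every knockout above every control and 8 every knockout below, where 26.2% and 24.5% of all tested genes did.

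α-Oxidation, which removes the first carbon of phytanic acid before β-oxidation can start, had 1 of its 2 enzymes called lower. Phyh, the hydroxylase that takes the first step, was the member with the highest level per length in both groups, 53.1 CPM per kb in knockouts and 104 CPM per kb in controls. It was at 75.04, 114 and 112 CPM in knockouts, against 186, 207 and 198 CPM in controls. No knockout reached a control (-0.97, SE 0.17, adjusted p = 1.63e-03), and without knockout replicate 1, its lowest library, the value was -0.80 (adjusted p = 2.74e-04). Hacl1, the lyase of a later step, was at 4.19, 6.33 and 7.005 CPM in knockouts and 5.79, 3.89 and 3.14 CPM in controls (0.41, SE 0.27, adjusted p = 0.265). Counts of Phyh were 17.9, 18.0 and 16.0 times those of Hacl1 in knockouts and 32.1, 53.3 and 63.1 times in controls. The knockout ratios were close to one another and below all controls (difference of mean log2 ratios -1.46, two-sided exact permutation p = 0.1). Exons of Hacl1 share 1540 bases with Gm49387 on the same strand. No gene of that name was among those counted, so the origin of Hacl1 reads in this stretch is less certain.

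Of 3 genes of ether lipid synthesis, 1 was called higher and 1 lower. Agps, which puts the ether bond in place, was at 56.4, 57.4 and 57.6 CPM in knockouts, against 40.5, 45.7 and 36.1 CPM in controls. Knockouts were nearly identical and above all controls (0.49, SE 0.12, adjusted p = 9.13e-03), and the call was made under each of the 15 alternatives. Far1, which supplies the fatty alcohol, was at 40.6, 42.3 and 38.6 CPM in knockouts and 32.8, 34.6 and 33.3 CPM in controls, also without overlap, and missed the threshold (0.27, SE 0.10, adjusted p = 0.0621). Gnpat, whose acyltransferase takes the first step in a complex with the Agps protein, was at 82.8, 102.7 and 105 CPM in knockouts and 126, 123 and 127 CPM in controls. It was called lower by a small amount (-0.37, SE 0.13, adjusted p = 0.0422), a call lost under 9 of the 15 alternatives, including the one without knockout replicate 1 (-0.27, adjusted p = 0.0645). The ratio of Agps to Gnpat counts was 0.681, 0.559 and 0.548 in knockouts and 0.322, 0.371 and 0.285 in controls, and that of Far1 to Gnpat 0.491, 0.412 and 0.366 in knockouts and 0.261, 0.280 and 0.263 in controls. Both ratios were higher in every knockout than in any control. Each had a two-sided exact permutation p = 0.1, or 0.18 adjusted over the 9 pairs compared.

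**Figure D3:**
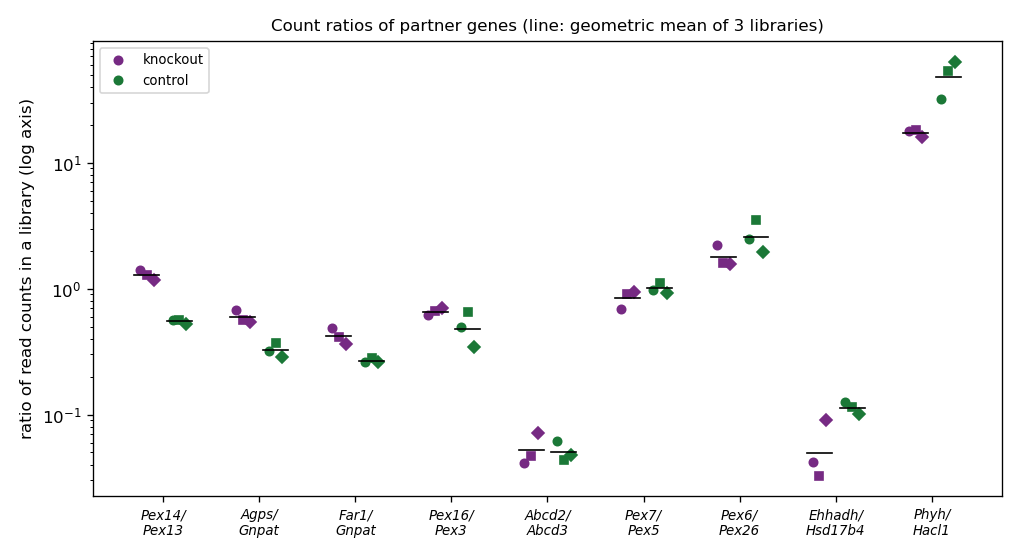
Ratio of the read counts of 2 partner genes in each library (log y axis), for 9 pairs ordered by the difference between groups, knockout left of control; the line is the geometric mean of 3 libraries. Pex14/Pex13 is above 1 in the knockouts and below 1 in the controls, and Phyh/Hacl1 is 16.0 to 18.0 in the knockouts and 32.1 to 63.1 in the controls.

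In the other 5 pairs the groups were separate for 1. Ehhadh to Hsd17b4 was 0.0420, 0.0327 and 0.0899 in knockouts and 0.127, 0.114 and 0.100 in controls, without overlap (p = 0.1 in the same exact permutation test). Pex16 to Pex3, Pex6 to Pex26, and Pex7 to Pex5 overlapped between groups (exact permutation p = 0.2 each), as did Abcd2 to Abcd3 (exact permutation p = 0.9). The pairs were picked as partners in a complex or pathway after the values were known, so their p-values only describe them. The share of other gene pairs separated in this way was not computed.

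Catalase, which breaks down the hydrogen peroxide that peroxisomal oxidases release, was higher. Cat was at 107, 147 and 139.7 CPM in knockouts, against 71.5, 95.7 and 92.3 CPM in controls. The lowest knockout lay above the highest control (0.60, SE 0.16, adjusted p = 0.0158). The call was lost without knockout replicate 2 (0.51, adjusted p = 0.0667) and without control replicate 1 (0.48, adjusted p = 0.0543), and was stronger without knockout replicate 1 (0.73, adjusted p = 1.56e-03). Per length Cat came next after Phyh in the knockouts, at 50.2 CPM per kb, and after Phyh and Gnpat in the controls, at 33.1 CPM per kb.

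**Figure D4:**
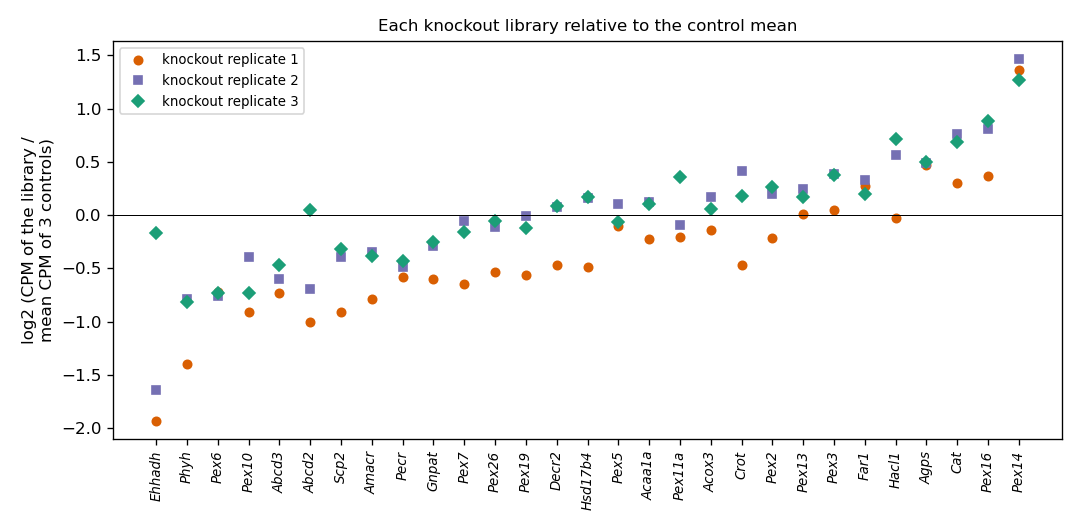
Level of each of the 29 genes in each knockout library relative to the mean of the 3 controls (log2, y axis), genes ordered by their mean; 0 is the control mean. Knockout replicate 1 (circles) is the lowest of the 3 for 26 genes, and knockout replicate 3 (diamonds) stands high for Ehhadh.

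Of 47 other genes listed beside the members as linked to peroxisomes, 33 passed the filter, and 14 did not. The list includes genes whose products also serve mitochondria, so its counts are not of peroxisomes alone. Of the 33 tested, 3 were higher and 12 lower, or 9.09% and 36.4%, beside the 18.7% and 17.8% of all tested genes, with a median of -0.29. The lower ones were led by Gstk1, a glutathione transferase of peroxisomes and mitochondria, at 3.13, 6.04 and 8.13 CPM in knockouts and 22.0, 21.7 and 22.7 CPM in controls (-1.96, SE 0.27, adjusted p = 5.02e-04). Pxmp2, a channel of the peroxisomal membrane, was at 2.92, 5.52 and 6.44 CPM in knockouts and 18.0, 18.0 and 20.9 CPM in controls (-1.95, SE 0.25, adjusted p = 3.08e-04). No knockout reached a control for either gene, and both calls were made under each of the 15 alternatives.

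Ech1, an isomerase of unsaturated chains, and Crat, carnitine acetyltransferase, both of which also serve mitochondria, were also called lower, with values of -1.23 and -1.12. The membrane protein gene Pxmp4 and the reductase gene Dhrs4 were both at -0.92, and the epoxide hydrolase gene Ephx2 and the CoA-cleaving Nudt7 at -0.77 and -0.73. Mlycd, which breaks down malonyl-CoA, and Prdx5, a peroxiredoxin, were called lower at -0.54 and -0.45. Mlycd, Ephx2, Nudt7 and Prdx5 each lost the call when certain single libraries were left out. Without knockout replicate 1 Prdx5 was no longer called (-0.34, adjusted p = 0.0534), and Mlycd and Ephx2 were called at -0.34 and -0.50 (adjusted p = 0.0274 and 3.81e-03). Without control replicate 2 the lower genes numbered 7, and without control replicate 1 they numbered 8. In those fits 3756 and 4257 of all tested genes were called, against 5215 with all libraries.

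The 3 higher ones were Acox2, Acot6 and Tysnd1. Without knockout replicate 1 the higher genes numbered 5, and the added ones are not reported here by name. In that fit 5837 of all tested genes were called. Acox2, an oxidase of branched chains and bile acid precursors, had 101, 147 and 105 counts in knockouts and 0 counts in each control. Against a floor of 3 counts over the control group it was at least 74.99-fold higher, a bound that covers counting error only. Tysnd1, the protease that trims imported matrix enzymes, was at 11.4, 11.1 and 11.5 CPM in knockouts and 6.62, 7.22 and 5.81 CPM in controls (0.79, SE 0.15, adjusted p = 2.62e-03). Acot6, an acyl-CoA thioesterase, was at 4.78 to 6.21 CPM in knockouts and 1.96 to 3.37 CPM in controls (1.11, SE 0.25, adjusted p = 6.43e-03). All 3 calls were made under each of the 15 alternatives.

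Of 7 nuclear receptors and coactivators that act on these genes in rodents, 4 were lower and 0 higher. Over all tested genes, 17.8% were called lower and 18.7% higher. Ppara, which encodes PPARα, was at 12.8, 19.0 and 21.3 CPM in knockouts and 49.4, 50.8 and 54.8 CPM in controls (-1.55, SE 0.17, adjusted p = 1.63e-04). Its binding partner Rxra was at 22.3 to 27.4 CPM in knockouts and 32.1 to 43.6 CPM in controls (-0.68, SE 0.14, adjusted p = 4.99e-03). The coactivators Ppargc1a and Ppargc1b were at 54.8 to 143 and 12.1 to 15.8 CPM in knockouts, against 200.3 to 494 and 27.3 to 41.6 CPM in controls. Ppard, Pparg and Esrra were not called, at -0.46, 0.03 and 0.00.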

How the data were processed

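The mm10 genome build, DESeq2 1.16.1, HISAT2 2.0.5, featureCounts 1.5.1 and SAMtools 1.5 are named, per the submitters' processing notes, without their settings. Raw read counts for every gene were deposited, with technical replicates given as 1 column per mouse. A further deposited table holds the authors' log2 fold changes and standard errors, a mean normalised signal, a test statistic (a score) and p-values, used only where named.

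Knockout and control counts were compared with edgeR 4.0.16 (R 4.3.3) over all genes passing filterByExpr (minimum count 10), with no block. The SE is the fold change divided by the root of F. Coordinates, exon lengths and overlaps came from GENCODE M21 (GRCm38, the same build as mm10), and near-identical transcripts from blastn at 95% identity over at least 300 bases. The test was tried on simulated data. Libraries of a group differed by more than sampling noise (chi-square per degree of freedom at least 8.93), so each counted as 1 replicate. Alternatives were other scalings and filters, DESeq2 1.42.0, limma-voom 3.58.1, the authors' deposited table, each library left out and a replicate block, 15 in all. Genes named were the members, called genes of the other lists, Elac2 and the regulators; others (Acaa1b, Alb, overlapping genes) were added after values were seen. Some genes counted in the other peroxisomal list are not reported here by name. The members and lists were chosen with earlier results of these data known.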

Additional observations from a re-analysis of the deposited data

How the results depend on the processing

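Library size alone changed the most. It called 8643 genes against 5215, 16 of the 29 genes higher and 0 lower, and 12 and 3 of the other peroxisomal genes, and set the median of the 29 at 0.65. Under it Pex10, Abcd3, Scp2, Amacr, Gnpat, Mlycd, Prdx5 and Rxra turned to 0.035, 0.11, 0.16, 0.18, 0.32, 0.16, 0.23 and 0.00207 and lost their calls, while Pex5, Hsd17b4 and Decr2 turned to 0.65, 0.66 and 0.58 and were called, all at or below the 0.68 of all genes; the cause was not tested. No filter called 5 other peroxisomal genes higher. The authors' deposited table called 4 of the 29 higher and 5 lower, where it called 14.5% and 13.1% of its genes.

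Leaving out 1 library gave 3694 to 5837 genes, 2 to 5 of the 29 higher and 4 to 8 lower, a median of -0.13 to 0.07, and 3 to 5 of the other peroxisomal genes higher and 7 to 11 lower. Fewer libraries were tested in these fits.

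With the replicate number as a block, 4293 genes, 4 of the 29 higher and 5 lower were called, Scp2, Amacr and Gnpat losing their calls and Ehhadh gaining one (-1.21, adjusted p = 0.0469). The labels do not say that the numbers pair the mice, and the correlations between libraries sharing a number, as deviations from group means, were -0.234, 0.102 and -0.118, with 1 of 6 libraries closest to its own number. Depth limits the lowest members: Ehhadh had 34 to 76 counts in knockouts and 51 to 107 in controls, and Pecr 27 to 37 in knockouts and 20 to 38 in controls.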
